A study of Rattus norvegicus with 18 samples.

Results

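The comparison of Glutamate_secret with Control set rat cortical cultures that received glutamate together with a secreted preparation against untreated cultures. Its members were chosen by sample title alone, 3 Glutamate_secret and 3 Control libraries of 18 in the series. Both groups were primary neuro-glial cultures from the cortex of newborn Wistar rats, which hold neurons, astrocytes and smaller numbers of other cells, were treated with cytosine arabinoside to hold back dividing glia, and were used at about day 10 in vitro. Control cultures received no glutamate. Glutamate_secret cultures were exposed to 100 µM glutamate with glycine, returned to conditioned medium, and lysed for RNA 4 h after the glutamate. The labels name the preparation only as Glutamate_secret, and the series title speaks of factors secreted by glial progenitor cells, so its composition, dose and time of addition are not given here. The contrast holds the glutamate and the preparation together, and their parts cannot be told apart from these 6 libraries. Beside it stand the 3 libraries of the Glutamate group, cultures given glutamate with no preparation. Nothing in the labels says that the 3 libraries of a group came from separate cultures or litters. The study's methods state in general that experiments were repeated on unrelated cultures, but do not tie this to single libraries. The p-values therefore measure the spread between libraries of a group, estimated over all 18 libraries of the series. That spread may be technical.

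Glutamate is the main excitatory transmitter of the cortex. When it stays high outside the cell, NMDA and AMPA receptors keep letting ions through, calcium floods the neuron, and the neuron first switches on immediate early genes and then loses synapses, mitochondrial function and finally its life, a course known as excitotoxicity. Astrocytes take glutamate up and respond to injury with a reactive gene program, and microglia respond with cytokines and chemokines.

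The deposited values were expected counts per gene, with 8409574 to 15488945 counts in a library of the 6 and 14318 to 17445 genes with a count. The libraries differed in ways that the groups do not explain. Ribosomal RNA took 43.0%, 6.80% and 6.58% of the counts of Control 1, 2 and 3, and 15.8%, 3.04% and 26.6% of those of Glutamate_secret 1, 2 and 3. Ribosomal protein genes, 80 of them tested, summed to 166758, 37609 and 37834 CPM (counts scaled to the TMM-adjusted library size) in the Control libraries. They summed to 231454, 38330 and 237423 CPM in the Glutamate_secret libraries. Control 1 therefore stood with Glutamate_secret 1 and 3 on this measure, and Glutamate_secret 2 stood with Control 2 and 3. On the first principal component of all 18 libraries, which held 53.7% of the variance, Control 1 and Glutamate_secret 1 and 3 had negative scores and the other 3 positive ones. On the second, with 18% of the variance, the groups did not overlap, at -112.2, -49.89 and -24.09 in Control and 7.557, 39.97 and 29.78 in Glutamate_secret. The part of these library differences in the gene values below was not tested beyond the fits with a library left out and with the ribosomal RNA share as a covariate.

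Across 14398 genes tested, no gene passed an adjusted p of 0.05 in the edgeR quasi-likelihood test (0%), and the smallest adjusted p was 0.126, shared by 39 genes. Unadjusted, 1690 genes had a p below 0.05, and 720 would do so if p were spread evenly. The likelihood-ratio test of edgeR, the test named in the study's methods, called 223 genes, 32 higher (0.222%) and 191 lower (1.33%) in Glutamate_secret. DESeq2 called 443, 116 higher (0.806%) and 327 lower (2.27%), and 222 genes were called by both tools. An unadjusted p below 0.05 with a fold above 1.5 in the quasi-likelihood test, a criterion without control of false calls, held for 591 higher (4.1%) and 1090 lower (7.57%) genes. Separate CPM ranges, with every library of one group above every library of the other, were found for 991 higher (6.88%) and 1306 lower (9.07%) genes. The median log2 fold change over all genes was 0.06. By every one of these counts more genes were lower than higher, although 53.5% of all genes had a positive log2 fold change.

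**Figure D1:**
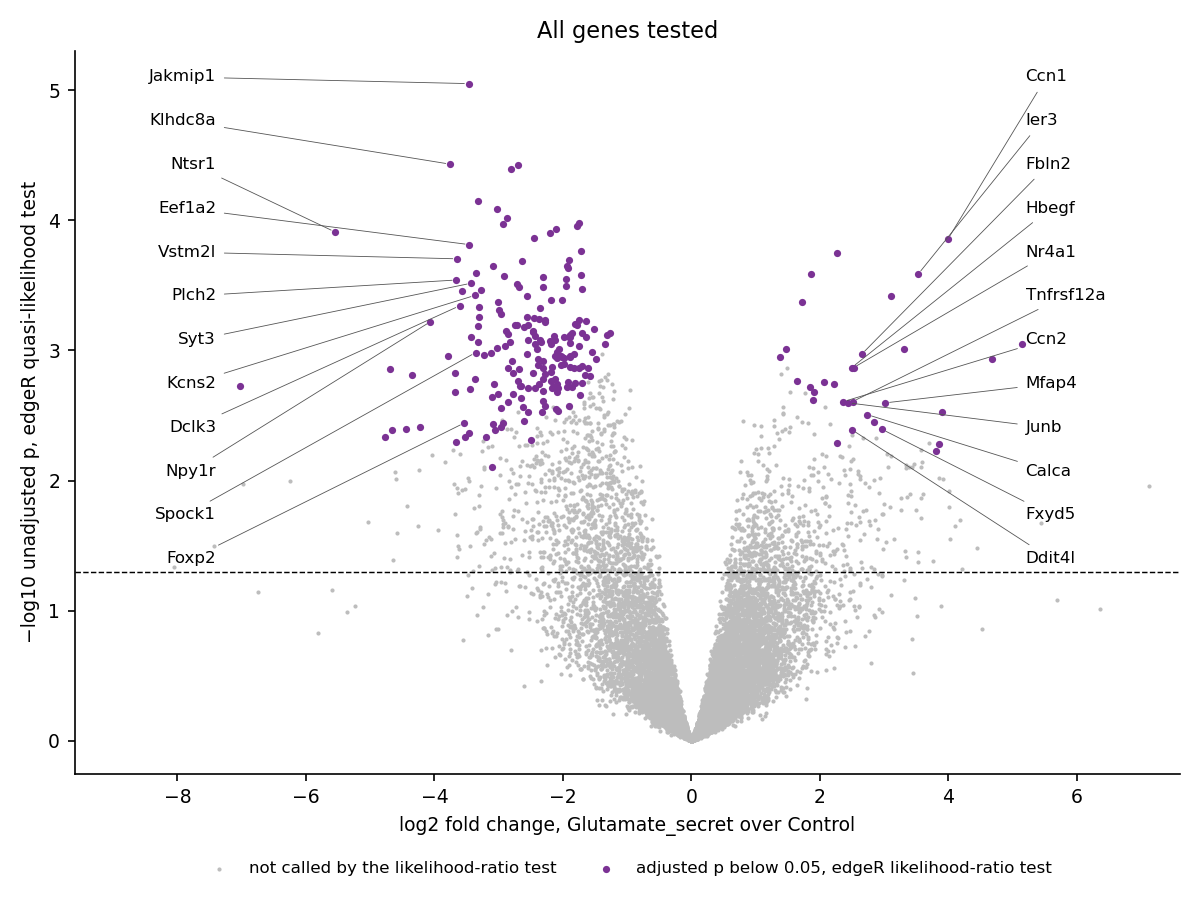
Log2 fold change of Glutamate_secret over Control against −log10 of the unadjusted p of the edgeR quasi-likelihood test for 14398 genes. Purple points are the 223 genes with an adjusted p below 0.05 in the edgeR likelihood-ratio test, 191 of them on the lower side, and the dashed line stands at an unadjusted p of 0.05.

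Among the genes furthest above Control were genes of early injury signalling and of the extracellular matrix. The 12 highest and 12 lowest by log2 fold change are described, taken from the genes called by both the likelihood-ratio test and DESeq2 with separate group ranges and an average log2 CPM not under 1, so that the lack of overlap in these 24 follows from how they were chosen. The 12 highest had log2 fold changes of 2.36 to 3.99 (SE 0.64 to 0.88), with quasi-likelihood adjusted p from 0.126 to 0.194.

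Ccn1, a secreted matricellular protein that is switched on within an hour or so of injury and growth factor signals, led them. It stood at 14.3, 3.97 and 7.05 CPM in Control 1, 2 and 3 and at 181, 82.7 and 129.5 CPM in Glutamate_secret 1, 2 and 3. The lowest Glutamate_secret library was well above the highest Control library. The log2 fold change was 3.99 (SE 0.80, 15.9-fold), with an adjusted p of 0.126 in the quasi-likelihood test and 0.00117 in the likelihood-ratio test.

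Its relative Ccn2, also a matricellular protein and a common readout of YAP and TEAD activity, stood at 5.42, 6.23 and 4.41 CPM in Control and 21.4, 41.5 and 19.4 CPM in Glutamate_secret. The groups did not overlap, and the log2 fold change was 2.36 (SE 0.66, adjusted p 0.168, likelihood-ratio 0.0389).

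Ier3, an early response gene of stress and NF-kB signalling, was at 1.14, 1.86 and 3.34 CPM in Control and 28.0, 21.6 and 26.8 CPM in Glutamate_secret. The 3 treated libraries lay close together, and the log2 fold change was 3.53 (SE 0.75, adjusted p 0.126, likelihood-ratio 0.0044). Hbegf, a ligand of the EGF receptor, was at 38.0, 16.2 and 25.1 CPM in Control against 195, 169.5 and 82.7 CPM. Tnfrsf12a, the receptor for the cytokine TWEAK, was at 7.13, 7.65 and 22.8 CPM against 89.3, 58.3 and 68.9 CPM. Both had non-overlapping ranges, with log2 fold changes of 2.5 (SE 0.64) and 2.51 (SE 0.70).

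The transcription factors among the 12 were Junb and Nr4a1. Junb, a partner in AP-1 dimers, was at 13.7, 4.32 and 6.19 CPM in Control and 51.3, 19.1 and 58.6 CPM in Glutamate_secret. Its log2 fold change was 2.44 (SE 0.68, adjusted p 0.169, likelihood-ratio 0.0375). Nr4a1, an orphan nuclear receptor induced by calcium and cyclic AMP, was at 3.14, 4.12 and 4.57 CPM against 17.95, 41.2 and 9.41 CPM. Its treated libraries were uneven, with Glutamate_secret 2 the highest, and the log2 fold change ran from 1.78 to 2.90 when a single library was left out.

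Fbln2 and Mfap4, components of elastic fibres and microfibrils, were the matrix genes of the 12. Fbln2 was at 316, 96.0 and 71.7 CPM in Control and 722, 446 and 1861 CPM in Glutamate_secret, so that Control 1 was the highest Control library and Glutamate_secret 3 the highest treated one. Mfap4 was at 10.6, 4.81 and 12.7 CPM against 79.8, 36.8 and 110.2 CPM. Their log2 fold changes were 2.65 (SE 0.66) and 3.02 (SE 0.84). Calca, which encodes the peptide CGRP, was at 1.43, 1.91 and 1.02 CPM against 14.96, 4.91 and 9.59 CPM. Fxyd5, a regulator of the sodium pump, was low in level, at 0.285, 1.67 and 1.61 CPM against 3.15, 8.93 and 18.5 CPM. Ddit4l, a stress-induced relative of the mTOR inhibitor Ddit4, was at 26.8, 9.71 and 21.7 CPM against 117, 38.6 and 174 CPM.

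**Figure D2:**
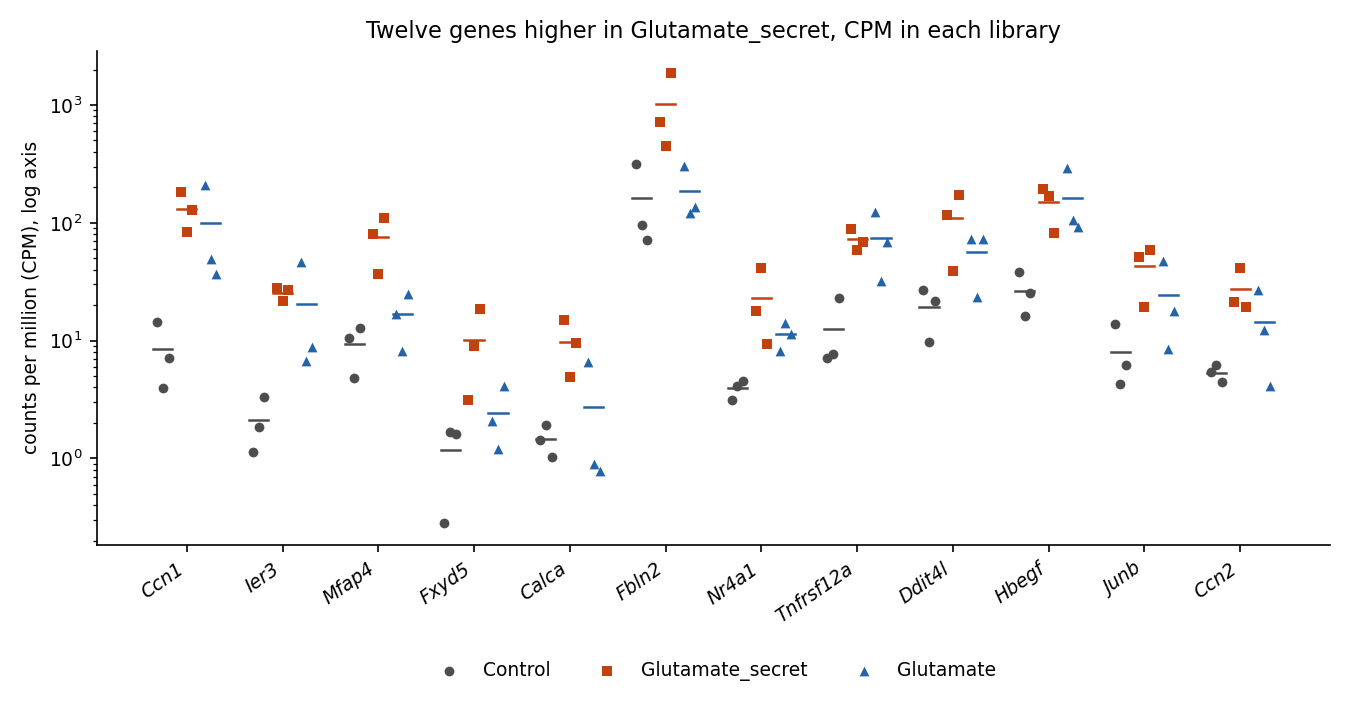
CPM on a log axis of the 12 highest genes in each library of Control (grey circles), Glutamate_secret (orange squares) and Glutamate (blue triangles), with a line at the group mean. For every gene the lowest Glutamate_secret library lies above the highest Control library, as for Ccn1 at 82.7 against 14.3 CPM, and the Glutamate libraries are lower for Fbln2 and Mfap4.

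The 250 bases before the start of Ccn1, Ccn2 and Junb are shown because these genes are immediate early genes whose control is well known, and because Ccn1 had the largest log2 fold change of the 12 and Ccn2 is its relative. They are RefSeq sequences in GRCr8 coordinates, in the direction of the gene. Capitals mark 3 motifs searched on both strands, which are TATAA (reverse TTATA), the letters of the TATA box, CATTCC (reverse GGAATG), letters bound by TEAD factors, and TGACG (reverse CGTCA), the core of the cyclic AMP response element.
Ccn1 (chr2:237225690-237225939, minus strand): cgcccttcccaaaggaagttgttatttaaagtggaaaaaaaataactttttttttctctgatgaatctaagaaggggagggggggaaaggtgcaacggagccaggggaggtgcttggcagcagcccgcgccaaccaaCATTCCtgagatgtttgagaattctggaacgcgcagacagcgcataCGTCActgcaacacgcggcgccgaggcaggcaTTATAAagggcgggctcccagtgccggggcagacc
Ccn2 (chr1:22624615-22624864, minus strand): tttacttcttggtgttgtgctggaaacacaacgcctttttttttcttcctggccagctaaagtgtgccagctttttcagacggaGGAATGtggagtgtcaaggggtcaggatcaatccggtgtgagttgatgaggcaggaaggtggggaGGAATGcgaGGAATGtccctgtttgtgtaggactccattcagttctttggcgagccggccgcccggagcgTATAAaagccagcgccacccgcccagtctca
Junb (chr19:40080876-40081125, plus strand): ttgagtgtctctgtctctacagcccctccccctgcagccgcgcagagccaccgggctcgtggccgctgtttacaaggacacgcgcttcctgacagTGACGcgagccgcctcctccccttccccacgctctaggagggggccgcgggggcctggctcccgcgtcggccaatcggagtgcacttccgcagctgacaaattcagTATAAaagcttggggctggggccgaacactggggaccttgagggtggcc
In Ccn1 the TATAA letters begin 34 bases before the start, with the reverse-strand match overlapping them, and CATTCC begins 113 bases before and TGACG, on the opposite strand, 67 bases before. Ccn2 held TATAA at 31 bases and 3 copies of CATTCC on the opposite strand, at 166, 101 and 92 bases. Junb held TATAA at 49 bases and TGACG at 155 bases. Of the 12 highest genes, 10 had a promoter in the table, and 5 of these 10 held TATAA, 4 held CATTCC and 5 held TGACG. Among the 10625 tested genes with a promoter the shares were 12.4%, 9.62% and 27.8%. Among the genes called by the likelihood-ratio test, TATAA stood in 8 of 25 promoters of higher genes (32.0%) and 15 of 126 of lower genes (11.9%), CATTCC in 4 and 11, and TGACG in 8 and 27. The motifs were chosen after the genes were known, and a match describes letters in this window and no more.

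The 12 lowest genes included receptors, a channel subunit and other genes known from neurons. They had log2 fold changes of -5.55 to -3.36 (SE 0.54 to 1.10), with quasi-likelihood adjusted p from 0.126 to 0.187. In a mixed culture, fewer neurons and less of a transcript in each neuron cannot be told apart.

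Ntsr1, a receptor for neurotensin that marks deep-layer projection neurons, was at 5.99, 19.3 and 19.2 CPM in Control and 0.157, 0.575 and 0 CPM in Glutamate_secret. Glutamate_secret 3 had no count, which allows up to 0.543 CPM, and the log2 fold change of -5.55 (SE 1.10) rests on few reads. Npy1r, a receptor for neuropeptide Y, was at 10.8, 6.92 and 6.14 CPM against 0.472, 0.531 and 0.362 CPM. Its log2 fold change was -4.06 (SE 0.95, adjusted p 0.133, likelihood-ratio 0.0109).

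Jakmip1, a neuronal protein that binds microtubules and GABA-B receptors, had the most even values of the 12. It was at 32.8, 44.2 and 34.0 CPM in Control and 3.46, 2.96 and 3.62 CPM in Glutamate_secret. The log2 fold change was -3.47 (SE 0.54, 11.1-fold, adjusted p 0.126, likelihood-ratio 6.27e-05). Eef1a2, the elongation factor of neurons and muscle, was the most abundant, at 78.5, 201 and 149.8 CPM against 15.6, 13.4 and 9.95 CPM. Leaving out any single library kept its log2 fold change between -3.76 and -3.14.

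Other genes of the 12 act in signalling, excitability and secretion. Plch2, a phospholipase C, was at 7.42, 21.0 and 19.4 CPM in Control against 1.73, 1.02 and 1.09 CPM. Syt3, a calcium sensor of vesicle traffic, was at 4.57, 12.8 and 10.4 CPM against 0.787, 0.884 and 0.905 CPM. Kcns2, a modulatory potassium channel subunit, was at 6.85, 10.7 and 7.16 CPM against 1.42, 0.619 and 0.362 CPM. In all 3 the Control and treated ranges lay apart, and Control 1 was the lowest Control library each time.

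Foxp2, a transcription factor of deep-layer cortical neurons, was at 41.7, 9.27 and 8.61 CPM in Control, with Control 1 far above the others, and at 2.83, 1.19 and 1.09 CPM in Glutamate_secret. Without single libraries its log2 fold change ran from -4.08 to -2.40. Klhdc8a, Vstm2l, Dclk3 and Spock1, the last a proteoglycan of the brain matrix, had log2 fold changes of -3.76, -3.65, -3.61 and -3.36.

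**Figure D3:**
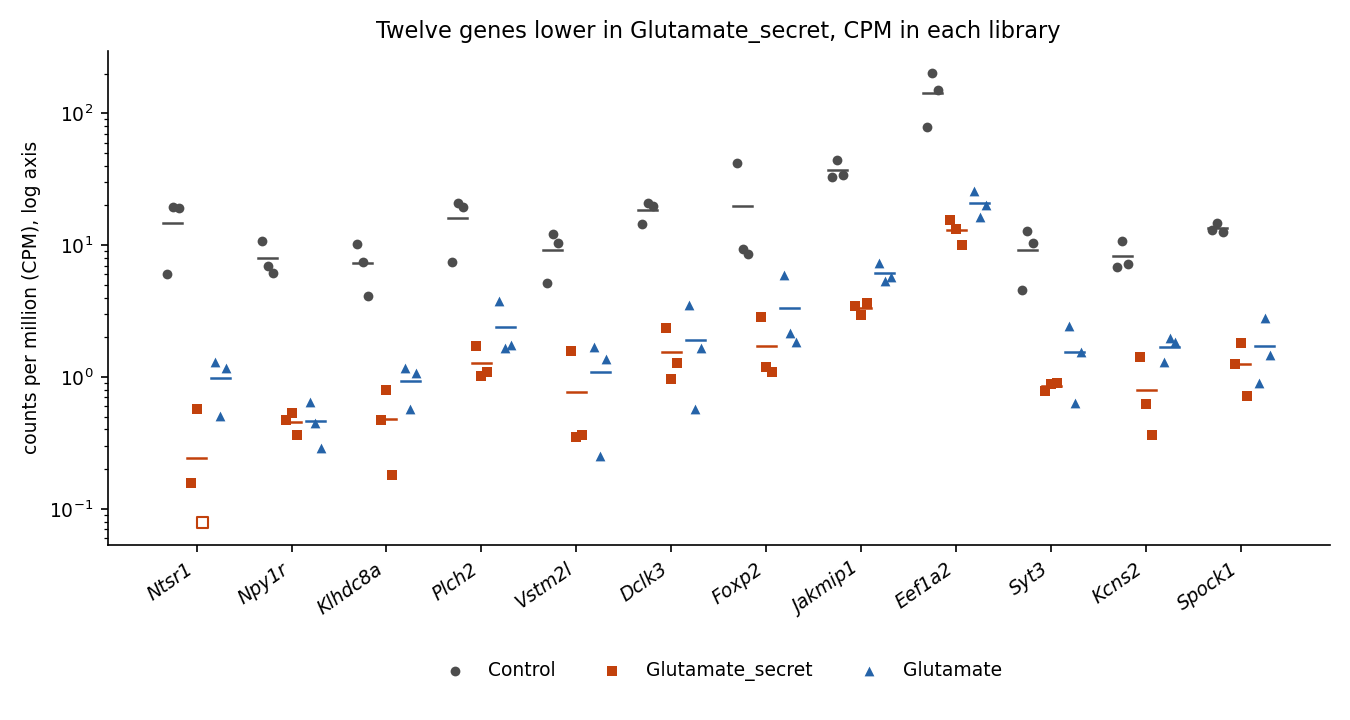
CPM on a log axis of the 12 lowest genes in each library of Control (grey circles), Glutamate_secret (orange squares) and Glutamate (blue triangles), with a line at the group mean and an open square at the foot of the axis for the Ntsr1 value of 0 in Glutamate_secret 3. Every Glutamate_secret value lies below every Control value of the same gene, as for Jakmip1 at 3.62 against 32.8 CPM.

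Most members of the neuronal lists had negative log2 fold changes. Of 25 general neuronal genes tested, 24 had a negative log2 fold change (median -1.52, against 0.06 over all genes), and 14 met the unadjusted criterion with a lower level, where 7.57% of all genes did. Their summed level was 13139, 9089 and 6084 CPM in Control and 4782, 2002 and 3711 CPM in Glutamate_secret, with no overlap. When single libraries were left out, 9 (without Glutamate_secret 3) to 14 members met the criterion and the median ran from -1.90 to -1.26. Counts over all genes moved as well, which bears on every list below. The lower count fell from 1090 to 769 without Control 2 and 705 without Glutamate_secret 3, and the higher count from 591 to 288 and 354. No member passed the quasi-likelihood test after adjustment.

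Tubb3, the neuronal tubulin, was at 493, 946 and 669 CPM in Control and 182, 129 and 149 CPM in Glutamate_secret, with a log2 fold change of -2.20 (SE 0.43, adjusted p 0.126, likelihood-ratio 0.00476). Tubb3, Thy1, Camk2b and Elavl4 were not examples set for the list. They are given as the 4 members called by the likelihood-ratio test, a choice made with their values known. Thy1, Camk2b and Elavl4 had log2 fold changes of -2.72, -1.91 and -2.30. Rbfox3, which encodes the neuronal nuclear antigen NeuN, was at 53.9, 134 and 58.9 CPM against 34.0, 19.3 and 19.2 CPM (log2 fold change -1.77, SE 0.56, adjusted p 0.221). Map2, the dendritic microtubule protein, behaved unevenly, at 45.7, 56.7 and 55.9 CPM in Control and 11.2, 69.3 and 12.1 CPM in Glutamate_secret. Its level in Glutamate_secret 2 was above every Control library, and the log2 fold change was -0.77 (SE 1.05, adjusted p 0.847).

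Markers of excitatory and inhibitory neurons were both lower. Of 13 excitatory genes 11 were negative (median -1.77) and 8 met the criterion (5 without Control 2 or without Glutamate_secret 2, 4 without Glutamate_secret 3), and of 17 inhibitory genes 16 were negative (median -1.36) and 8 met it. Summed levels were 703, 298 and 264 CPM in Control against 157, 71.3 and 141 CPM for the excitatory list, and 1386, 815 and 760 CPM against 454, 267 and 398 CPM for the inhibitory list. Slc17a7, the vesicular glutamate transporter, was at 51.4, 78.3 and 52.9 CPM against 19.4, 4.60 and 20.3 CPM. Neurod1, the only excitatory member called by the likelihood-ratio test, was at 25.4, 6.72 and 5.92 CPM against 1.10, 1.28 and 1.27 CPM (log2 fold change -3.35, SE 0.71). Slc32a1, the vesicular GABA transporter, was at 18.8, 41.1 and 40.8 CPM against 5.197, 4.55 and 5.79 CPM (log2 fold change -2.70, SE 0.48, likelihood-ratio adjusted p 0.000905). Calb2 and Vip, which mark classes of interneuron, were the other inhibitory members called by that test, at log2 fold changes of -2.20 and -2.36. Gad1, the enzyme that makes GABA, was at 105, 124 and 127 CPM against 64.9, 32.1 and 38.7 CPM.

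The receptors that glutamate acts on were also lower. Of 24 glutamate receptor genes 20 had negative log2 fold changes (median -1.11) and 12 met the unadjusted criterion with a lower level, none with a higher one. Grin1, the obligatory NMDA receptor subunit, was at 43.9, 98.0 and 94.0 CPM in Control and 33.2, 18.5 and 19.5 CPM in Glutamate_secret. Grin2b, a subunit typical of young neurons, was at 12.3, 53.1 and 25.1 CPM against 8.98, 4.42 and 4.70 CPM (log2 fold change -2.33, SE 0.76, adjusted p 0.232). Gria1, an AMPA receptor subunit, was at 10.8, 46.3 and 37.6 CPM against 3.78, 6.41 and 1.99 CPM. Grm2, a presynaptic metabotropic receptor named after its values were seen, was the only member called by the likelihood-ratio test (adjusted p 0.0059), at 2.00, 3.04 and 3.01 CPM against 0.315, 0.486 and 0.181 CPM. Grin2a, the subunit of mature NMDA receptors, was scarce, with 44 counts in Control and 3 in Glutamate_secret, all libraries of a group added. Without Glutamate_secret 3 only 5 members met the criterion, and without Control 2 there were 6.

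GABA-A and other GABA receptor genes were negative for 11 of 13 members (median -1.59), and 5 met the criterion. No member passed the quasi-likelihood test after adjustment, and the median ran from -2.08 to -1.12 with single libraries left out.

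Synaptic genes were lower on both sides of the cleft. Of 24 genes of vesicle release, 23 were negative (median -1.51) and 15 met the criterion, against 9 without Control 2 and 7 without Glutamate_secret 3. Syp, an abundant vesicle membrane protein, was at 522, 466 and 362 CPM against 207, 50.5 and 133 CPM (log2 fold change -1.79, SE 0.73, adjusted p 0.351). Syn2, a synapsin that tethers vesicles, was at 14.3, 26.5 and 25.8 CPM against 5.35, 3.58 and 2.35 CPM (log2 fold change -2.56, SE 0.64, likelihood-ratio adjusted p 0.0191). Sv2a, a vesicle glycoprotein, was at 163, 178 and 114 CPM against 53.7, 27.9 and 41.4 CPM (log2 fold change -1.89, SE 0.47, likelihood-ratio adjusted p 0.0249). Both were named after their values were seen.

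All 24 postsynaptic and adhesion genes were negative (median -1.46), and 12 met the criterion, 7 without Control 2 and 7 without Glutamate_secret 3. Epha4, named after its values were seen, and LRRTM1, an example set for the list, were the members called by the likelihood-ratio test. Epha4, a receptor for ephrins on dendritic spines and glia, was at 164, 77.7 and 61.0 CPM in Control and 14.8, 15.9 and 14.5 CPM in Glutamate_secret. LRRTM1, a postsynaptic partner of neurexins, was at 25.1, 30.0 and 33.9 CPM against 8.82, 8.67 and 6.15 CPM (log2 fold change -1.91, SE 0.40). Shank1, a scaffold of the postsynaptic density, was at 22.8, 70.7 and 61.9 CPM against 9.13, 17.7 and 3.08 CPM. The scaffold Dlg4 had overlapping ranges, at 45.4, 141 and 119.6 CPM against 27.6, 54.7 and 22.4 CPM.

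Of 37 voltage-gated channel genes 35 were negative (median -1.29), with 15 lower and 1 higher by the criterion. None was higher by it when any single library other than Glutamate_secret 2 was left out. Cacna2d3, an auxiliary calcium channel subunit, was the only member called by the likelihood-ratio test (log2 fold change -2.09, SE 0.53). Scn2a, a sodium channel of axons, overlapped at 308, 134 and 64.0 CPM against 122, 17.4 and 73.8 CPM. Of 24 calcium handling genes 23 were negative (median -1.24) and 12 met the criterion. Atp2b2, a plasma membrane calcium pump, was at 13.4, 38.2 and 33.4 CPM against 7.09, 6.63 and 5.07 CPM (log2 fold change -2.18, SE 0.57, likelihood-ratio adjusted p 0.0308). Slc8a2, a sodium-calcium exchanger, was at 22.3, 29.9 and 29.3 CPM against 29.4, 17.2 and 38.7 CPM, with overlap in both directions. Among 10 neuropeptide and granin genes 9 were negative (median -1.57), and 4 met the criterion, 2 without Control 1 or without Glutamate_secret 2. Chgb, a granin of dense-core vesicles, was at 38.2, 111 and 73.2 CPM against 22.05, 24.2 and 9.95 CPM.

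Immediate early transcription factors were higher on balance. Of 18 tested, 17 had positive log2 fold changes (median 1.13), and 7 met the unadjusted criterion with a higher level, where 4.1% of all genes did, against none with a lower one. The higher count was 5 to 9 when a single library was left out. When Glutamate_secret 2 was left out, 13 were positive, 5 were negative and 1 met the criterion with a lower level. The 1 negative member of the full set, at -2.41, had separate ranges. Fos, the AP-1 subunit that reports recent neuronal activity, was at 13.7, 11.9 and 9.10 CPM in Control and 31.0, 27.6 and 48.8 CPM in Glutamate_secret, with a log2 fold change of 1.64 (SE 0.43, adjusted p 0.151, likelihood-ratio 0.0457). With Junb and Nr4a1 it made the 3 members called by the likelihood-ratio test. Egr1 was even in Control, at 15.98, 13.8 and 14.5 CPM, and high only in Glutamate_secret 2, at 14.6, 54.9 and 17.01 CPM. Atf3, a stress-induced factor, was at 8.56, 7.16 and 9.96 CPM against 27.7, 16.4 and 7.78 CPM, so that Glutamate_secret 3 lay within the Control range.

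The genes that such factors control were divided. Of 18 activity effectors 11 were positive and 7 negative (median 0.45), with 3 higher and 1 lower by the criterion. The median ran from 0.12 to 0.96 with single libraries left out, and 3 were lower without Glutamate_secret 2 and 2 without Control 3. Dusp6, a phosphatase that limits ERK signalling, was at 21.7, 13.9 and 9.53 CPM against 42.4, 28.5 and 49.0 CPM (log2 fold change 1.42, SE 0.41, adjusted p 0.181). Plk2, a kinase that scales synapses after activity, was on the opposite side at 30.2, 72.1 and 55.6 CPM against 8.03, 14.4 and 5.97 CPM (log2 fold change -2.47, SE 0.64, likelihood-ratio adjusted p 0.0238). Bdnf, the activity-regulated neurotrophin, overlapped at 4.85, 1.32 and 1.67 CPM against 4.09, 4.47 and 2.17 CPM. Arc, a synaptic activity gene, was scarce in every library of the 6, at no more than 2.92 CPM.

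Growth factor genes held 2 members called by the likelihood-ratio test, Hbegf, given above, and Fgf2, a mitogen of glia named after its values were seen. Fgf2 was at 1.43, 0.245 and 0.323 CPM in Control and 3.31, 3.14 and 1.45 CPM in Glutamate_secret, a narrow gap between Control 1 and Glutamate_secret 3. The 14 tested members of the neurotrophic list had a median of 0.36. Ntrk2, the receptor for Bdnf, was at 1016, 569 and 621 CPM against 633, 898 and 1147 CPM, with overlap.

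Astrocyte lists moved apart from each other. The summed level of astrocyte identity genes, which checks that astrocytes were present beside neurons, was 7012, 4818 and 6067 CPM in Control and 9043, 6580 and 13487 CPM in Glutamate_secret. The 17 tested genes of this list had a median of 0.09, with none meeting the criterion in either direction and no member with separate ranges. Slc1a2, the main glutamate transporter, was at 13.7, 11.1 and 16.7 CPM in Control and 5.83, 30.2 and 10.3 CPM in Glutamate_secret, and Slc1a3, its glial relative, at 381, 728 and 962 CPM against 568, 2091 and 818 CPM. Aqp4, the water channel of astrocyte endfeet, was at 67.9, 166 and 430.0 CPM against 36.4, 630.2 and 77.4 CPM. In each of these genes Glutamate_secret 2 was the highest of the 6 libraries and the other treated libraries lay among or below the Control values.

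All 18 tested reactive astrocyte genes had positive log2 fold changes (median 1.68) and 7 met the criterion, 4 without Control 1 or without Control 2 and 11 without Control 3, while no member was called by the likelihood-ratio test. Timp1, an inhibitor of metalloproteinases, was at 40.8, 20.4 and 51.9 CPM in Control and 492, 158 and 322 CPM in Glutamate_secret (log2 fold change 3.10, SE 0.99, adjusted p 0.225, likelihood-ratio 0.0599). Gfap, the intermediate filament of astrocytes, overlapped at 1275, 1589 and 3600.5 CPM against 3497, 3186 and 5587 CPM (log2 fold change 0.92, SE 0.67). Control 3 was the highest Control library for Gfap and also for Vim, at 188, 178 and 694 CPM against 767, 964 and 656 CPM. Cd44, the hyaluronan receptor, was uneven in both groups, at 3.14, 11.6 and 55.9 CPM against 51.8, 173 and 27.7 CPM. Without Gfap, the summed level of the list was 632, 697 and 1541 CPM in Control and 3022, 2948 and 2635 CPM in Glutamate_secret, with no overlap.

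Inflammatory genes were sparse. Of 25 listed, 17 passed the filter on low counts, 14 of these were positive (median 1.11) and 6 met the criterion, 3 without Control 2. Ccl2, a chemokine that draws monocytes, was at 1.71, 0.245 and 5.27 CPM in Control and 38.0, 31.3 and 19.5 CPM in Glutamate_secret (log2 fold change 3.58, SE 1.17, adjusted p 0.236, likelihood-ratio 0.0618). Tnf, Il1a and 5 other genes in the files did not pass the filter. Of 18 microglial genes 17 were positive (median 1.29) and 4 met the criterion, and only 1 did when any of Control 1, 2 and 3 or Glutamate_secret 3 was left out alone. Glutamate_secret 3 stood out in this list. Their summed level was 86.2, 232 and 229 CPM in Control and 179, 331 and 993 CPM in Glutamate_secret, and Aif1, a calcium-binding protein of microglia, was at 8.28, 9.27 and 8.29 CPM against 12.9, 13.2 and 105 CPM. Csf1r, the receptor on which microglia depend, was at 1.14, 11.8 and 9.10 CPM against 1.73, 16.7 and 2.71 CPM.

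Genes of fibroblasts and mural cells were positive for 12 of 14 members (median 1.26), with 6 meeting the criterion. Their summed level was 508, 209 and 309 CPM in Control and 1662, 956 and 2741 CPM in Glutamate_secret. Without Fbln2 it was 192, 113 and 237 CPM against 940, 510 and 880 CPM, still without overlap. Cnn1, a smooth muscle calponin named after its values were seen, was with Fbln2 the member called by the likelihood-ratio test, at 0, 0 and 0.377 CPM against 1.89, 1.55 and 3.80 CPM. Col1a1, the collagen of fibroblasts, was at 0, 0.834 and 1.88 CPM against 1.10, 3.63 and 7.42 CPM, and Col3a1 did not exceed 1.09 CPM in any of the 6. Acta2, Dcn, Des, Lum and Rgs5 did not pass the filter. Of 26 matrix and protease genes 24 were positive (median 0.85). By the criterion 6 were higher, Ccn1 and Ccn2 among them (3 without Control 2 or without Glutamate_secret 2). It was met with a lower level by 1 (2 without Control 1 or without Glutamate_secret 2). When Glutamate_secret 2 was left out, only 16 were positive and the median was 0.26. Endothelial markers were at or near the floor, with only 3 genes tested and summed levels between 4.28 and 9.05 CPM in the 6 libraries.

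**Figure D4:**
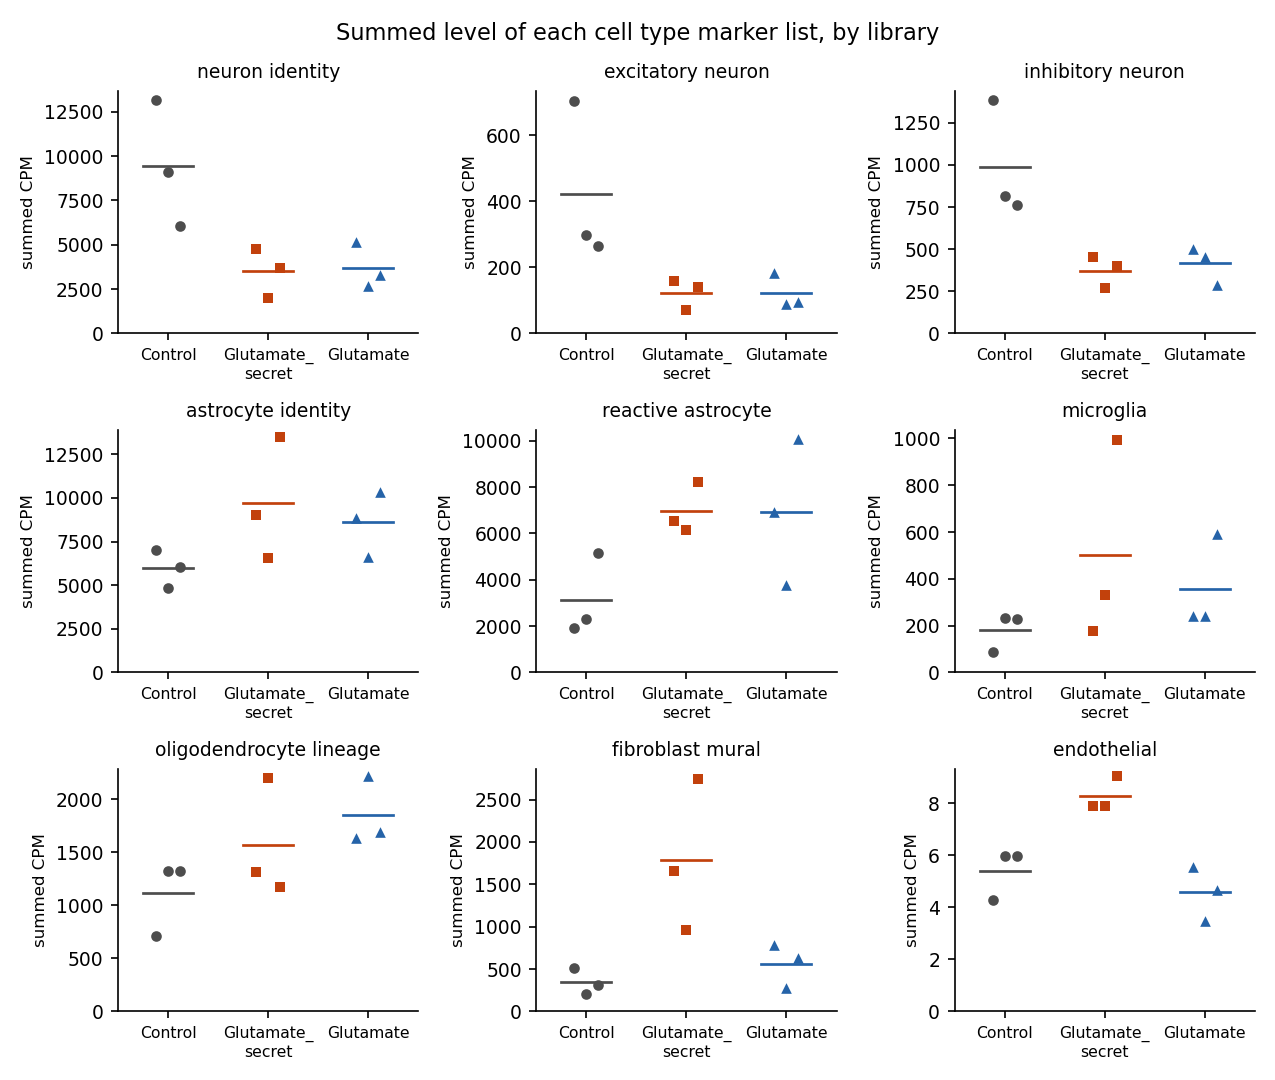
Summed CPM of each cell type marker list in each library of Control (grey circles), Glutamate_secret (orange squares) and Glutamate (blue triangles), with a line at the group mean and each axis from 0. The 3 neuronal lists are lower in every Glutamate_secret library than in any Control library, and the microglial sum is led by Glutamate_secret 3 at 993 CPM.

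Cells of the oligodendrocyte lineage gave no common direction, with 11 of 16 members positive (median 0.21) and 2 meeting the criterion. Without Control 1 none was higher by it and the median was -0.01, and without Glutamate_secret 2 none was higher, 3 were lower and the median turned to -0.29. Without Control 3 or without Glutamate_secret 1 there was 1. Olig2, a factor of that lineage, was at 46.8, 70.6 and 87.4 CPM in Control and 119.5, 171 and 128 CPM in Glutamate_secret (log2 fold change 1.03, SE 0.39, adjusted p 0.303). Pdgfra, the receptor of their precursors, was at 21.1, 90.9 and 93.2 CPM against 43.3, 319.7 and 30.8 CPM, and Mbp, a myelin protein, at 49.1, 116 and 126 CPM against 75.6, 161 and 100.05 CPM.

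All 22 cell cycle genes were positive (median 0.81), and 13 had separate ranges on the higher side, where 6.88% of all genes did. The criterion was met with a higher level by 8, against 4.1% of all genes, and by 5 without Control 2 and 3 without Glutamate_secret 3. When Glutamate_secret 2 was left out, 20 were positive and 1 met it with a lower level. The proliferation markers themselves had overlapping ranges. Mki67 was at 21.7, 34.2 and 42.7 CPM in Control and 28.8, 69.3 and 37.8 CPM in Glutamate_secret, and Top2a at 24.0, 38.3 and 48.4 CPM against 38.3, 90.1 and 37.3 CPM. Cdkn1a, which encodes the cell cycle inhibitor p21 and is induced by damage, was at 33.7, 66.3 and 49.5 CPM against 109.6, 129.6 and 71.5 CPM (log2 fold change 1.05, SE 0.38, adjusted p 0.276).

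Stress programs were positive by small amounts. Of 20 genes of the integrated stress response 19 were positive (median 0.64), and 4 met the criterion, 2 without Control 3 and 0 without Glutamate_secret 1. Ddit3, which encodes the factor CHOP, overlapped at 117, 41.6 and 32.3 CPM in Control and 192, 40.1 and 104 CPM in Glutamate_secret. Of 18 chaperones of the endoplasmic reticulum 16 were positive (median 0.35) and 3 met the criterion, 5 without Control 1. Hsp90b1 was at 273, 392 and 318 CPM against 432, 573 and 481 CPM (log2 fold change 0.59, SE 0.30, adjusted p 0.478), and Hspa5, the chaperone BiP, at 125, 388 and 420.1 CPM against 505, 1055 and 388 CPM.

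Of 18 antioxidant genes under NRF2, 17 were positive (median 0.80) and 2 met the criterion, 0 without Control 1, 4 without Control 3 and 1 without Glutamate_secret 2. Nqo1, a quinone reductase, was at 108, 47.8 and 102 CPM against 239.5, 127 and 268 CPM, and Hmox1, the haem oxygenase, overlapped at 72.8, 183 and 278 CPM against 342, 480.0 and 174 CPM. The 16 heat shock genes had a median of 0.27 with 1 member by the criterion, 0 without Control 1 or without Control 2 and 2 without Control 3. Hspb1, a small heat shock protein of reactive glia, was at 2.85, 2.70 and 21.5 CPM against 55.4, 37.6 and 122 CPM (log2 fold change 2.96, SE 1.12, adjusted p 0.311).

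Apoptosis and energy genes gave few differences. None of 20 apoptosis genes met the criterion (median 0.34, which turned to -0.33 without Glutamate_secret 2). None of 27 nuclear or 13 mitochondrially encoded genes of oxidative phosphorylation met it either, with medians of 0.42 and 0.44. The nuclear median was 1.02 without Control 1 and the mitochondrial one turned to -0.18 without Glutamate_secret 2. Of 21 glycolysis and hypoxia genes 2 were higher and 3 lower by the criterion (median 0.31; 0 to 2 higher and 0 to 4 lower with single libraries left out), and of 20 cholesterol synthesis genes 1 was higher and 2 lower by it (median -0.20), each 0 to 2 with single libraries left out. The 10 tested genes of perineuronal nets had a median of 0.18, with 1 higher by the criterion, and the median turned to -0.98 without Glutamate_secret 2 and to -0.02 without Control 1. Of the 80 ribosomal protein genes 79 were positive (median 1.07) and 2 met the criterion. Without Control 1 there were 7 and a median of 2.02, without Glutamate_secret 2 there were 5, and without any of the other libraries alone there were 0. The sum of this list was high in Control 1 and low in Glutamate_secret 2, as given above. With the ribosomal RNA share as a covariate, 53 members were higher by the criterion, as were 1475 of all 14398 genes in that fit. Leaving out Control 1 and Glutamate_secret 2 together, chosen after seeing the data, gave 63, where 1868 of all 14636 genes were higher. The part of the library differences in this list was not tested.

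The Glutamate libraries give the response to glutamate with no preparation. The comparison of Glutamate with Control uses the same Control libraries as that of Glutamate_secret, so the values are set side by side and their likeness is no independent result. Log2 fold changes of Glutamate over Control were 0.21 to 3.59 for the 12 highest and -4.09 to -2.27 for the 12 lowest, with adjusted p of 0.261 or more. Tested directly, Glutamate_secret against Glutamate had no gene at an adjusted p below 0.05 by the quasi-likelihood test, the likelihood-ratio test or DESeq2, with 98, 123 and 166 genes at an unadjusted p below 0.05 (957 in the quasi-likelihood test without Glutamate_secret 2). Glutamate against Control had none by the quasi-likelihood test, with 1167 at an unadjusted p below 0.05, and 45 and 235 by the other tools.

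Of the 24 genes named by fold, the matrix genes Fbln2 and Mfap4 had the largest differences from Glutamate. The 24 were chosen for extreme values in these same Glutamate_secret libraries. That choice by itself favours a difference from Glutamate, so these values are descriptive. Fbln2 was at 304, 121 and 135 CPM in Glutamate 1, 2 and 3, within the spread of Control, and all 3 Glutamate_secret libraries were above them. Its log2 fold change of Glutamate_secret over Glutamate was 2.43 (SE 0.66) with an adjusted p of 1. Mfap4, at 16.8, 8.19 and 25.0 CPM in Glutamate, likewise lay under every Glutamate_secret value (log2 fold change 2.18, SE 0.81, adjusted p 1). Fxyd5 and Calca gave 2.05 (SE 0.85) and 1.85 (SE 0.75), with overlap for Fxyd5 and Calca between single libraries of the groups.

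For Ccn1, Hbegf, Tnfrsf12a, Npy1r, Tubb3 and Slc32a1 the difference between the groups was smaller than its SE or close to it. Ccn1 was at 211, 49.4 and 36.9 CPM in Glutamate, a range that holds all 3 Glutamate_secret values, with a log2 difference of 0.40 (SE 0.70). Hbegf and Tnfrsf12a differed by -0.14 (SE 0.61) and -0.05 (SE 0.66). Among the neuronal genes, Npy1r differed by 0.03 (SE 0.91), Tubb3 by -0.18 (SE 0.42) and Slc32a1 by -0.47 (SE 0.45). Atf3, singled out after its values were seen, was higher in Glutamate, at 50.6, 30.3 and 28.5 CPM, than in any Glutamate_secret library (log2 difference -1.07, SE 0.51, adjusted p 1). The SEs show how wide these differences remain, and an adjusted p of 1 does not show that the groups were equal. The summed level of the general neuronal list was 5129, 2694 and 3310 CPM in Glutamate, overlapping the Glutamate_secret values.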

How the data were processed

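The series holds 18 RNA-seq libraries of cultured cells, 3 in each of 6 groups. The deposited values are expected counts per gene: per the study's methods the authors used Trimmomatic and then Cutadapt for trimming and Salmon for quantification against Ensembl transcripts of rn6 with the genome as decoy, and tximport summed transcripts to genes. The submitters' processing notes also list STAR. The labels and the methods differ on library kit and sequencer, and the use of strand in quantification is not stated, so overlapping genes on opposite strands may share reads. Expected counts were rounded to whole numbers, which left 31463 rows, 78 of them ribosomal RNA.

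Genes were filtered with filterByExpr (minimum count 10, minimum total 15), leaving 14398, and libraries were scaled by TMM. All 18 libraries entered 1 edgeR 4.0.16 model with a mean per group. The quasi-likelihood test with Benjamini-Hochberg adjustment was the main test, and the edgeR likelihood-ratio test, DESeq2 1.42.0 and limma 3.58.1 (voom with sample weights), all in R 4.3.3, were alternatives. Fits were tested on simulated counts. SE is the log2 fold change divided by the root of F. CPM uses the scaled library sizes, in which 1 count in a library of the 6 is 0.0442 to 0.285 CPM; zero limits are 3 counts and cover counting error only.

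Named genes were those called by the main test and, since there were none, the 12 highest and 12 lowest by log2 fold change among genes called by both the likelihood-ratio test and DESeq2, with mean log2 CPM of at least 1, ranges that do not overlap and a gene symbol (176 qualified), besides example members of the 33 gene lists. The members and lists were chosen with earlier results of these data known. Replicate numbers were not taken as pairs, because the deviations from the group means correlated at 0.534 and 0.598 for numbers 1 and 2 but at -0.454 for number 3. Glutamate_secret 2 correlated most with Control 3, and Glutamate_secret 3 with Control 1. The first principal component was negative for number 1 and positive for number 2 in all 6 groups, and mixed for number 3. The study's supplement names a day covariate that neither it nor the labels tie to the numbers, so a shared day was not settled. Promoters were read from RefSeq by symbol for 10625 tested genes. Results for a few genes are not reported here.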

Additional observations from a re-analysis of the deposited data

How the results depend on the processing

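No gene was called at an adjusted p below 0.05 by the quasi-likelihood test with RLE size factors, no filter on low counts, the 6 libraries alone, ribosomal RNA rows removed or any single library left out (lowest and highest 0). The likelihood-ratio test called 223 genes, DESeq2 443, limma voom with sample weights 7673 and the ribosomal RNA share as covariate 581. The replicate block gave 695 calls with 18 libraries and 0 with 6. The numbers were not taken as pairs because number 3 went against it (-0.454), although numbers 1 and 2 deviated together (0.534 and 0.598). Glutamate_secret 2 followed Control 3 more closely than Control 2. Which fit suits the design was not settled. Leaving out Control 1 and Glutamate_secret 2 together, chosen after seeing the data, called 1 gene; it leaves Glutamate_secret 1 and 3, with 15.8% and 26.6% ribosomal RNA, against Control 2 and 3, with 6.80% and 6.58%.

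The 1681 genes at an unadjusted p below 0.05 and a fold above 1.5 became 8152 with voom weights, 3181 with the replicate block of 18 libraries, 3594 with the covariate and 4139 without both libraries. They ran from 1057 without Control 2 to 2627 without Glutamate_secret 2, with 1059 without Glutamate_secret 3. Glutamate_secret against Glutamate gave 10 calls with voom weights and 3 with the covariate. Glutamate against Control gave 45 by the likelihood-ratio test, 235 by DESeq2, 6113 with voom weights, 166 with the replicate block and 32 with the covariate. Without Control 1 the likelihood-ratio test called 273 genes and DESeq2 535 in Glutamate_secret against Control. The cause of these changes was not tested.

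No named gene whose log2 fold change is given changed sign. Some genes given by CPM alone did so with single libraries left out, such as Slc8a2 (-0.22 to 0.32) and Arc (-0.89 to 0.83). List medians moved by less than the spread between libraries in 520 of their alternative values and by more in 41. Without both doubted libraries the reactive astrocyte median was 0.82, the fibroblast 0.32, the general neuronal -1.04 and the ribosomal protein 2.47. Control 1, with the smallest scaled size, sets the weakest limit on low genes.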
